A study of Rattus norvegicus with 2 samples.

Results

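Chd7 peaks were spread thinly over the rat genome, except in a small set of megabase windows crowded with them. The windows were found by assigning each Chd7 peak on chromosomes 1 to 20 to a 1 Mb bin by its start, and keeping every bin with 30 or more Chd7 peaks. Of 2626 bins with a peak of either protein, 26 (0.99%) passed, and they held 1410 of the 15310 deposited Chd7 peaks, or 9.64% of the 14624 on chromosomes 1 to 20. Adjacent bins were joined, which gave 21 runs on 13 chromosomes, 18 of them a single bin. Members were chosen by the density of Chd7 peaks, so Chd7 number, spacing, width and score are described here and not tested. The Sox10 list played no part in the choice.

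The peaks come from chromatin immunoprecipitation and sequencing (ChIP-seq) of primary Sprague Dawley rat oligodendrocyte progenitors, induced to differentiate for 3 days with T3, a thyroid hormone. Cells were cross-linked with formaldehyde, and sheared chromatin was precipitated with an antibody against Chd7 (from CST) or Sox10 (from Abcam). Each antibody has 1 library, with no replicate, no other time point and no perturbation. The peak lists cannot show which cell types the cultures held, and whether animals were pooled is not given in the sources used here. Library depth is unknown, no control library was used here, and no difference between windows carries a test.

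Chd7 is a chromodomain helicase that uses ATP to move nucleosomes, and it is found at enhancers and promoters of many cell types. Mutations in its human counterpart cause CHARGE syndrome. Sox10 is an HMG-box transcription factor that oligodendrocytes need to differentiate and to express myelin genes. A ChIP-seq peak is a stretch with more precipitated fragments than the caller expects. Its caller score ranks peaks within 1 list. The scale of the scores is not stated, so the proteins are compared only by rank. Scores of both proteins given side by side are each to be read within their own list. Positions are on build rn5, and no gene or sequence is given because an rn5 annotation or genome was not used here.

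The dense windows were far richer in Chd7 than in Sox10, the reverse of the usual relation. A dense bin held 30 to 103 Chd7 peaks (median 52.5) and 4 to 56 Sox10 peaks (median 22). The other 2600 bins had medians of 4 Chd7 and 13 Sox10 peaks. Chd7 peaks outnumbered Sox10 peaks in 25 of the 26 dense bins and in 327 of the other 2600, against 13.4% of all bins. In the remaining dense bin, at the start of chromosome 2, both counts were 56. The rule favours bins of this kind, since it selects high Chd7 counts.

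**Figure D1:**
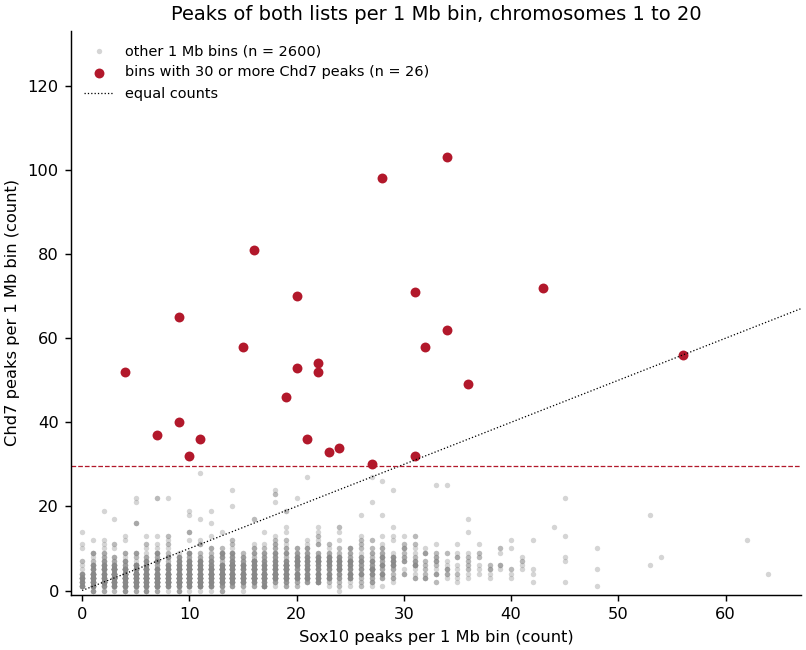
Chd7 peaks (vertical axis, count) against Sox10 peaks (horizontal axis, count) in each 1 Mb bin of chromosomes 1 to 20; red points are the 26 bins above the dashed threshold, grey points the other 2600, and the dotted line marks equal counts. Dense bins reach 103 Chd7 peaks, and 25 of 26 lie above the line of equal counts.

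Sox10 was also more frequent in these windows than elsewhere. Sox10 counts lay above the median of the other bins in 20 of the 26 dense bins and below it in 6. Splitting Sox10 peaks by overlap uses the Chd7 peaks that chose the bins, so the split is a description. Counting only Sox10 peaks that overlapped no Chd7 peak, the dense bins had a median of 11 (mean 14.2, range 1 to 45), and the other bins also had a median of 11 (mean 12.2). The median of the dense bins became 17.5 with 25 Chd7 peaks as the minimum, 15 with bin edges shifted by 500 kb and 16.5 against Chd7 peaks of score 100 or more. That of the other bins was not recomputed, and the score minimum would leave more Sox10 peaks without Chd7 there too. Of the 31 bins with 40 or more Sox10 peaks, 2 were dense in Chd7 (6.45%, 95% exact interval 0.79% to 21.4%), against 0.99% of all bins. Across bins, Chd7 and Sox10 counts had a Spearman's rho of 0.26 over the 26 dense bins and 0.35 over the other 2600. Bins of a chromosome share both libraries, so these values are descriptions.

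The 38 bins bordering a run, under the threshold by definition, held 1 to 27 Chd7 peaks with a median of 8, and a median of 13 Sox10 peaks. All bins outside the runs, these included, had a median of 4 Chd7 peaks (quartiles 3 and 7). The threshold itself cut through a continuous range. Just inside it, the bin at 176 to 177 Mb on chromosome 2 held 30 Chd7 peaks. Just outside it, the bin at 5 to 6 Mb on chromosome 12 held 28, of which 6 overlapped Sox10, with a median score of 83.1 and 11 Sox10 peaks. No other bin held 28 to 31.

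Within a run the Chd7 peaks followed each other every few kilobases. The median gap between neighbouring members, edge to edge, was 5.73 kb (quartiles 1.38 and 13.3 kb, 1389 gaps). Neighbouring Chd7 peaks in the other bins were a median of 115 kb apart (quartiles 36.0 and 272 kb). Gaps of at most 10 kb made up 68.2% of the former and 11.7% of the latter. The median gap of a run ranged from 3.45 kb to 10.5 kb, both on chromosome 2. The largest gap in a run was 87.7 to 520 kb, so the peaks did not fill their megabase evenly.

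In many runs they were concentrated in a block. In windows of 100 kb, the longest stretch with at least 5 Chd7 peaks in every window covered 100 to 1000 kb of a run (median 300 kb) and held a median of 80% of its peaks. That share was 50% or more in 15 of 21 runs, and it ranged from 12.4% in the second run of chromosome 1 to 98.0% in the first of chromosome 9. Where stretches of equal length tied, the first was taken. The value of 12.4% depends on that choice: the stretch taken held 13 peaks, and a tied one at the end of the run had windows of 12 and 10. Peaks were also joined into chains wherever the gap was at most 20 kb, a distance chosen after the data were seen. By this measure 62.9% of the 1410 members lay in chains of 10 or more peaks. The longest chain of each run had 8 to 84 peaks, and in 20 of 21 runs it had 10 or more.

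**Figure D2:**
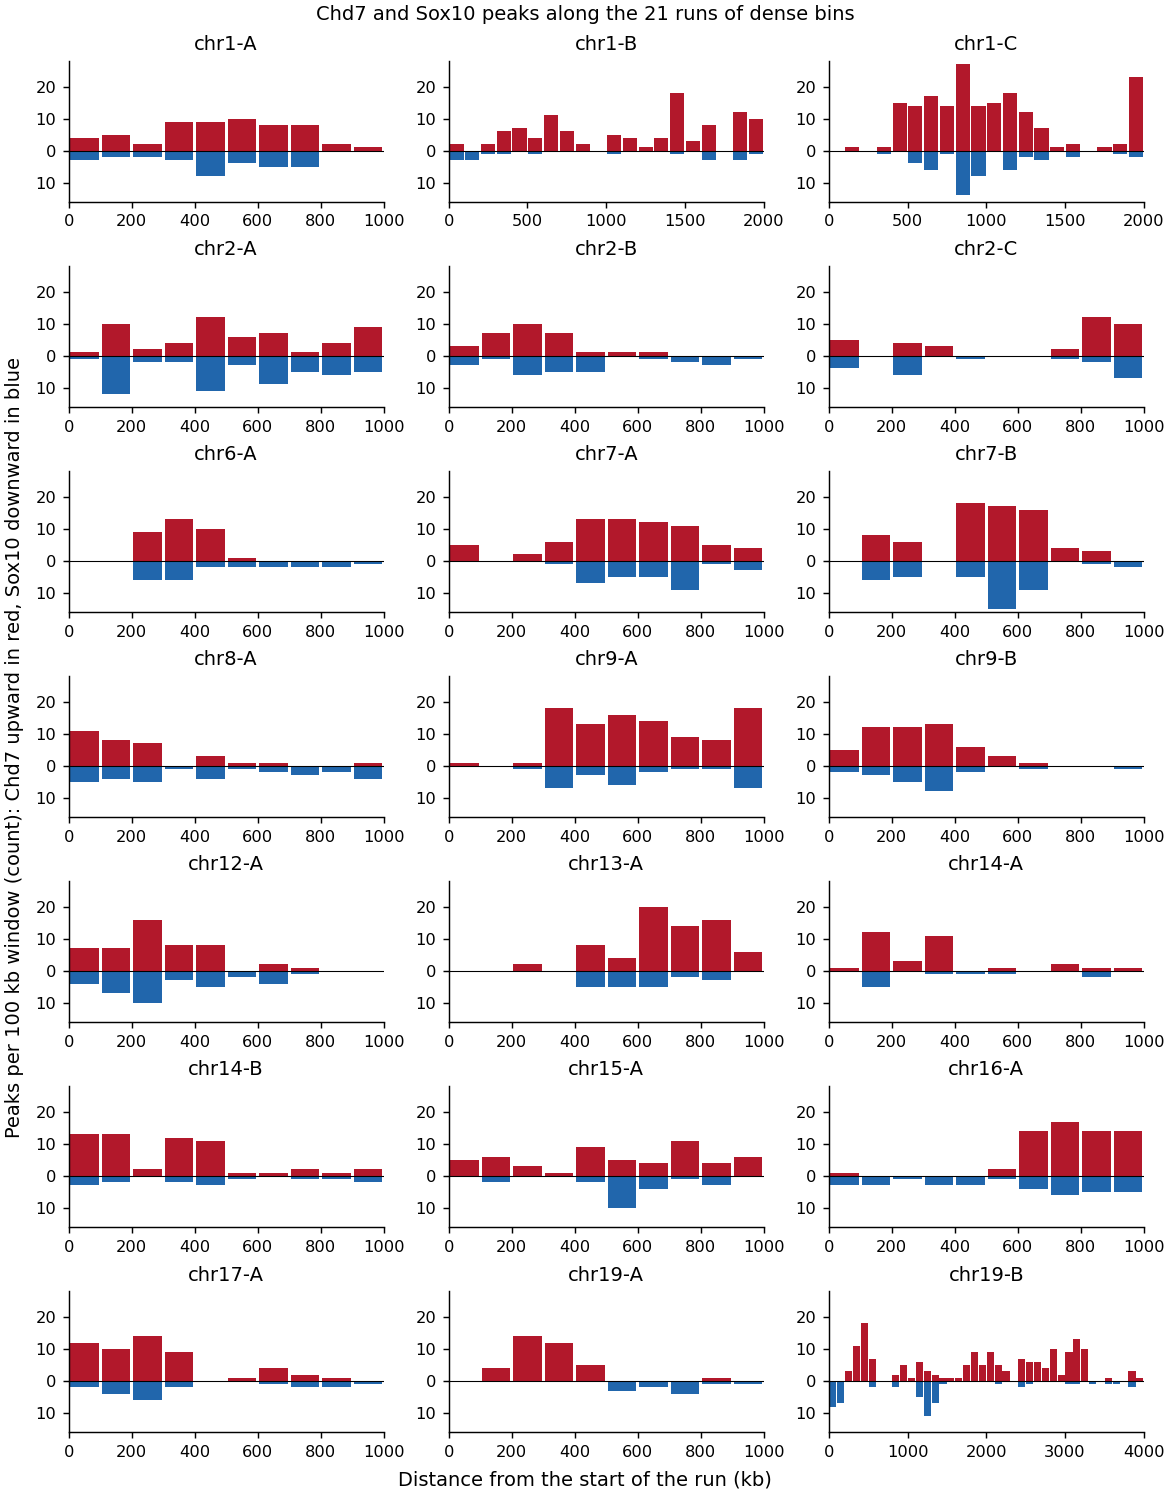
Peaks per 100 kb window along each of the 21 runs, against the distance in kb from the start of the run; red bars count Chd7 peaks upward and blue bars Sox10 peaks downward. In most runs the Chd7 peaks fill a block of neighbouring windows with Sox10 peaks beneath it. In chr19-A, chr19-B and parts of chr1-B and chr1-C, windows with many Chd7 peaks hold few or no Sox10 peaks.

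Sox10 peaks tended to lie in the same blocks. Over the 260 windows of 100 kb, Chd7 and Sox10 counts had a Spearman's rho of 0.45, a description, since neighbouring windows are not independent. The 63 windows with 10 or more Chd7 peaks held a median of 4 Sox10 peaks, and the 116 windows with at most 2 Chd7 peaks a median of 1. Of those 63 windows, 9 held no Sox10 peak, and 6 of the 9 were on chromosome 19.

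Members had higher scores and were wider than Chd7 peaks elsewhere. Their scores ran from 50.05 to 3100 with a median of 90.3 (quartiles 63.1 and 168), and the other 13214 Chd7 peaks of chromosomes 1 to 20 had a median of 66.1 (quartiles 56.1 and 91.0). Every run had a median score above that of the other peaks, from 67.2 to 299. Among the Chd7 peaks of higher score classes a larger share lay in dense windows. Members were 5.57% of the Chd7 peaks with scores from 50 to under 60, 16.5% of those from 120 to under 250, 36.2% of those from 250 to under 1000 and 51.6% of the 91 at 1000 or more. Without the run on chromosome 1 that held the most members, the shares of the upper classes were 27.3% of 451 and 27.9% of 61, so the difference between them rested on that run. The highest score, 3100, was shared by 6 members, so their order was not measured.

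The width of members had a median of 450 bp (quartiles 298 and 729 bp), against 310 bp (quartiles 248 and 410 bp) elsewhere. A width of 1000 bp or more was reached by 199 members (14.1%) and by 168 other peaks (1.27%), so 54.2% of all such wide Chd7 peaks on chromosomes 1 to 20 were members. In 20 of 21 runs the median width was above that of the other peaks. At similar scores the members were still wider: 343 against 257 bp for scores from 50 to under 60, and 554 against 514.5 bp for scores from 120 to under 250. Width and score went together less closely inside, with a Spearman's rho of 0.36 across members and 0.56 across the other peaks. The widest member, 4564 bp at 39270307 to 39274870 on chromosome 6, had a score of 415 and covered nearly the same stretch as a Sox10 peak at 39270283 to 39274859.

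**Figure D3:**
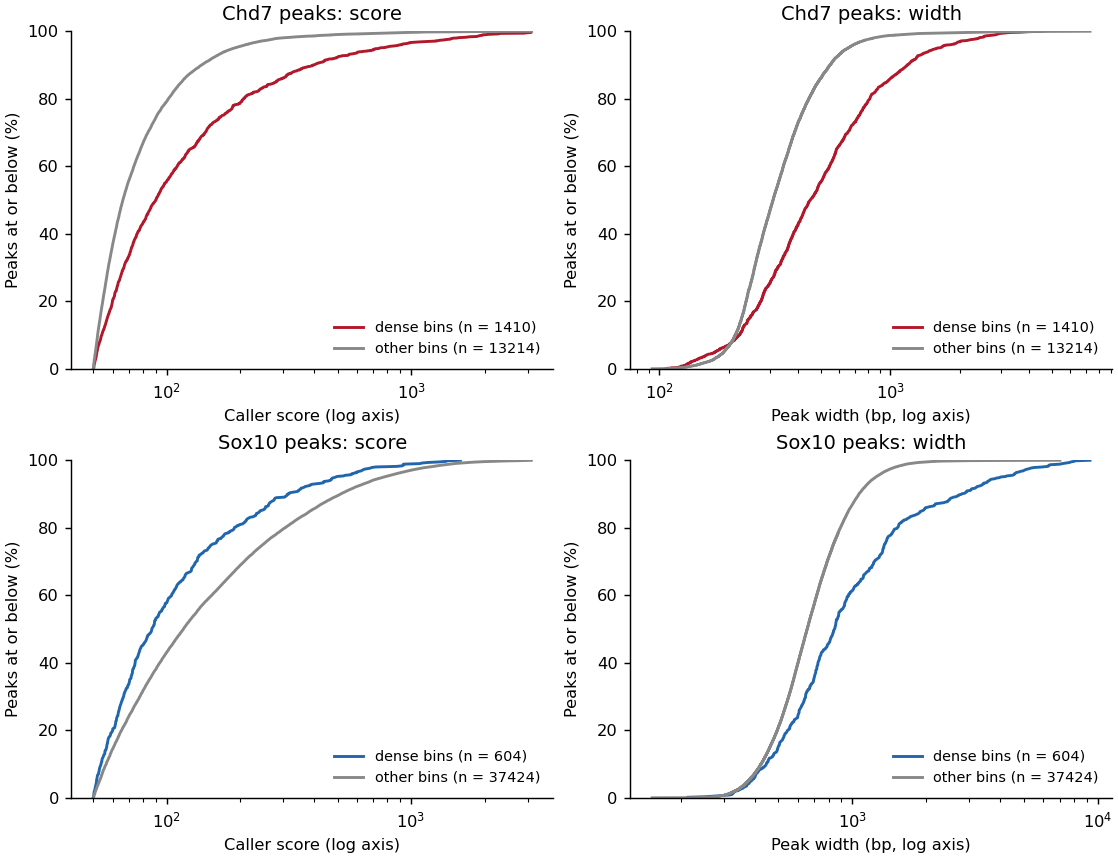
Cumulative percentage of peaks at or below each caller score (left, log axis) and width in bp (right, log axis), for Chd7 (top) and Sox10 (bottom); coloured lines are peaks in the 26 dense bins and grey lines peaks in the other bins. Chd7 peaks in dense bins have higher scores and are wider, whereas Sox10 peaks in dense bins are wider but have lower scores.

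The Sox10 peaks of these windows were also wider than elsewhere, but their scores were lower. The 604 Sox10 peaks had a median score of 86.8 (quartiles 63.3 and 153), and the other 37424 a median of 117 (quartiles 71.0 and 247). In 19 of 21 runs the median Sox10 score was below that of the other bins. The exceptions were the third run of chromosome 1 (183) and the third of chromosome 2 (124). A score of 500 or more was held by 4.801% of the Sox10 peaks in dense bins and 10.5% of those elsewhere.

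Sox10 width had a median of 847 bp inside and 655 bp outside, and 20.4% of the peaks inside were at least 1500 bp wide against 2.02% outside. Of the 39 Sox10 peaks of 5000 bp or more in the whole list, 19 lay in the dense bins, which held 1.59% of the Sox10 peaks of chromosomes 1 to 20. These 19 came from 10 runs, 6 of them from the run on chromosome 16, and had a median score of 117, against 283 for the other 20. The widest, 9291 bp at 21950524 to 21959814 on chromosome 16, scored 117 and overlapped 1 Chd7 peak of score 75.1.

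Coincidence of the proteins differed between the inside and the outside of the windows in both directions. Of the 1410 members, 289 overlapped a Sox10 peak by at least 1 bp, or 20.5% (95% exact interval 18.4% to 22.7%). Over all Chd7 peaks of chromosomes 1 to 20 the share was 42.4%, and outside the dense bins it was 44.8% (43.9% to 45.6%). Among the 604 Sox10 peaks, 235 met Chd7, or 38.9% (34.999% to 42.9%), against 15.9% over all and 15.5% (15.1% to 15.9%) outside. The intervals cover counting error only, and peaks are not replicates. The many Chd7 peaks of a chosen bin raise the Sox10 share and, with fewer Sox10 than Chd7 peaks, limit the Chd7 share. Sox10 peaks covered 3.0003% of the dense bins and 1.03% of the other bins.

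The share of members with Sox10 was the lower one in the weaker 4 of 6 classes of Chd7 score. From 50 to under 60, 13.9% of members and 30.5% of other Chd7 peaks overlapped Sox10. From 120 to under 250 the shares were 16.1% (95% exact interval 12.0% to 20.9%) and 71.5% (69.1% to 73.8%), the widest separation. Outside the windows the share thus climbed through these 4 classes, and inside it stayed between 13.9% and 19.2%. From 250 to under 1000 the shares were close, with 33.3% of 186 members and 33.5% of 328 other peaks.

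At scores of 1000 or more the order was turned. There, 38 of 47 members overlapped Sox10 (80.9%, 66.7% to 90.9%), against 15 of 44 other peaks (34.1%, 20.5% to 49.9%). The third run of chromosome 1 supplied 30 of these 47 members. Without it, 13 of 17 overlapped Sox10 (76.5%, 50.1% to 93.2%). The other classes without that run lay between 14.1% and 35.8%.

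**Figure D4:**
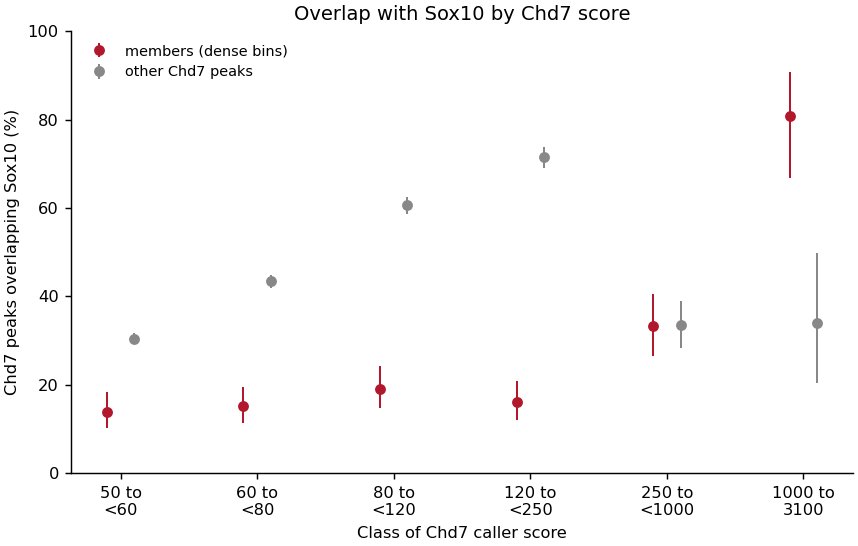
Percentage of Chd7 peaks that overlap a Sox10 peak (vertical axis) in 6 classes of Chd7 caller score (horizontal axis); red points are members, grey points other Chd7 peaks of chromosomes 1 to 20, and bars are 95% exact binomial intervals (counting error only). Members lie below the other peaks in the lower 4 classes, at a similar level from 250 to under 1000, and above them from 1000.

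Where peaks of the proteins overlapped, the Chd7 peak was usually the one of higher rank inside the dense bins and the Sox10 peak outside them. Chd7 scores were higher and Sox10 scores lower in the dense bins as a whole, so this order is not separate from those differences. In the 289 overlapping pairs of the dense bins, the Chd7 peak had a median percentile of 84.8 within the Chd7 list and the Sox10 peak a median of 43.7 within its own. In the 5919 pairs outside, these medians were 61.6 and 81.8. The Chd7 percentile was the higher of the pair in 80.6% of the pairs inside and 22.7% of those outside. Without the run that held the most members it was the higher in 182 of 237 pairs (76.8%). Of the 20 runs with pairs, 3 had the higher median for Sox10: the first run of chromosome 1 (33.4 for Chd7 and 38.0 for Sox10), the run of chromosome 6 (79.2 and 92.8) and the second run of chromosome 19 (41.0 and 47.2). Outside the windows, Sox10 peaks that overlapped Chd7 had a median score of 324 and those that did not of 102.2. Inside, the corresponding medians were 98.0 and 78.2.

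The pairs were also less closely aligned. The median distance between the centres of a pair was 182 bp inside (quartiles 49 and 566 bp) and 67 bp outside (quartiles 31 and 127 bp). Sox10 enclosed Chd7 entirely in 88.2% of pairs inside and 93.1% outside. A Sox10 peak with Chd7 carried 2 or more Chd7 peaks in 47 of 235 cases inside (20.0%) and in 113 of 5800 outside (1.95%). The choice of bins by Chd7 density favours such cases, so this difference is a description. Chd7 peaks that share a Sox10 peak cannot all lie at its centre, which adds to the centre distance inside. That distance was not recomputed without them. Sox10 peaks in all overlapping pairs had a median width of 1331 bp inside and 841 bp outside, counted once per pair.

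The 1121 members without Sox10 were nearer to a Sox10 peak than such Chd7 peaks elsewhere. Their median distance, edge to edge, was 13.5 kb (quartiles 5.17 and 42.6 kb), against 38.3 kb for the 7300 outside. A Sox10 peak lay within 10 kb of 40.9% of them and of 20.2% of those outside.

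In every run the share of members with Sox10 was below the 44.8% of the other bins, from 0% to 41.7%. In 3 runs the exact interval still contained 44.8%. The share of Sox10 peaks with Chd7 was above the 15.5% of the other bins in 17 of 21 runs, and in 11 its interval lay wholly above. It ran from 0% to 95.0%, a wider spread between runs than that of the Chd7 share, with 10 to 56 Sox10 peaks behind each value.

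**Figure D5:**
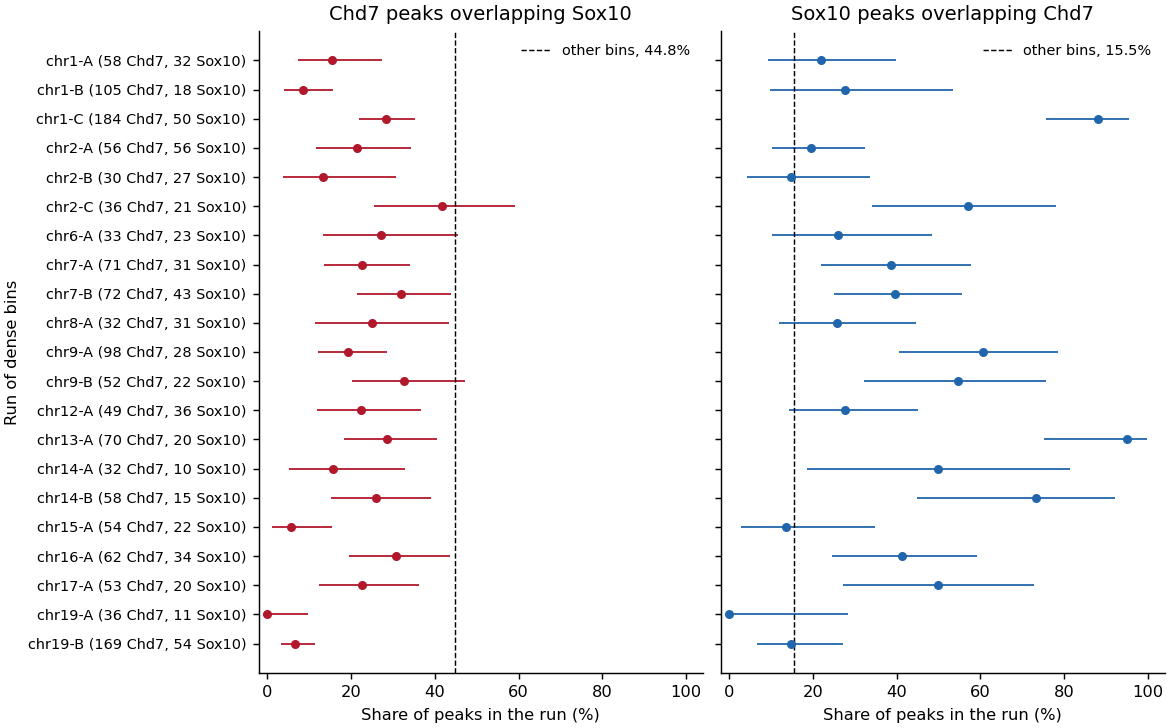
Share of Chd7 peaks that overlap Sox10 (left) and of Sox10 peaks that overlap Chd7 (right), in percent, for each run, with 95% exact binomial intervals (counting error only); dashed lines give the shares in the other bins, 44.8% and 15.5%. All Chd7 points lie left of their line, and the Sox10 points spread from 0% to 95.0%.

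Along the chromosomes, 4 of the 21 runs took up the first megabase of their chromosome, on chromosomes 2, 7, 12 and 19. The first megabases of the other 16 chromosomes held 0 to 17 Chd7 peaks. At the far ends, the bins with the last peak of each chromosome held 0 to 9, and these are partial megabases whose counts cannot be set against those of full bins. The run nearest to a far end was on chromosome 8, 5.44 Mb before the last peak of either list. The other runs were scattered over the length of their chromosomes, and 7 chromosomes (3, 4, 5, 10, 11, 18 and 20) had none. In what follows, runs are named by chromosome and lettered in order of position.

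Chromosome 1 carried 3 runs of very different strength. The first, chr1-A (40031461 to 40987978), had 58 Chd7 peaks with a median gap of 7.26 kb and a median score of 74.1. Of these, 44 lay between 40.3 and 40.8 Mb, in the same windows as 25 of its 32 Sox10 peaks. Of the 58, 9 touched a Sox10 peak (15.5%, against 20.5% of all members and 44.8% in the other bins). Chd7 was found at 7 of the 32 Sox10 peaks (21.9%, against 15.5% in the other bins). Its highest Chd7 peak, at 40147768 to 40148388 (score 481), was 22.8 kb from any Sox10 peak. Sox10 was highest at 40638619 to 40642161 (score 537), over a Chd7 peak of score 132.

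The second, chr1-B (55004246 to 56978786), was poor in Sox10. It spanned 2 bins with 105 Chd7 peaks and 18 Sox10 peaks. Sox10 was overlapped by 9 of these Chd7 peaks (8.57%, against 44.8% in the other bins), and Chd7 by 5 of the Sox10 peaks (27.8%, against 15.5%). Chd7 peaks came in separate bursts rather than a block, the densest being 18 peaks between 56400001 and 56500000 with a median score of 130, over 1 Sox10 peak. That stretch included the highest Chd7 peak of the run, at 56420007 to 56420721 (score 961), 6.93 kb from the nearest Sox10 peak. Both bins next to the run were themselves rich in Chd7, with 21 and 19 peaks.

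The third, chr1-C (187182628 to 188985755), held the most members, 184 in 2 bins, with a median score of 253 and a median gap of 4.70 kb. Its neighbouring bins held 4 and 11 Chd7 peaks. A single chain of 84 peaks covered 187647942 to 188069684, at 19.9 peaks per 100 kb, and 28 of the 29 Sox10 peaks there overlapped Chd7. The densest 100 kb of any run, 187800001 to 187900000, had 27 Chd7 peaks with a median score of 454 beside 14 Sox10 peaks. A second, detached group of 23 Chd7 peaks filled the last 100 kb of the run, with 2 Sox10 peaks. Over the whole run 44 of 50 Sox10 peaks had Chd7 (88.0%), and in 51 of 52 overlapping pairs Chd7 ranked higher in its list than Sox10 in its own.

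The strongest members were mostly in chr1-C. Of the 10 highest-scoring members 9 were there, the other being on chromosome 13, and 8 of these 9 overlapped Sox10. The one without Sox10, at 187766771 to 187769180 (score 3100), was 23.4 kb from the nearest Sox10 peak although 2410 bp wide. Below the score of 3100, peaks at 187978884 to 187980165 (score 3015), 187847132 to 187847794 (score 2936) and 187661437 to 187663618 (score 2904) overlapped Sox10 peaks of scores 637, 378 and 664. The tenth, at 188182885 to 188183747, scored 2322 with Sox10 at 587. The highest Sox10 peak of the run, at 187935204 to 187937335, scored 930 over a Chd7 peak of score 2178 with almost the same borders (187935248 to 187937293).

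Chromosome 2 carried 3 runs as well. The first, chr2-A (21699 to 999864), began at the start of the chromosome and had equal numbers of both proteins, 56 and 56. The median score was 76.2 for Chd7, against 66.1 in the other bins, and 72.3 for Sox10, against 117. The maxima were 185 and 209. Overlaps numbered 12 for Chd7 (21.4%, against 44.8% in the other bins) and 11 for Sox10 (19.6%, against 15.5%). The counts in 100 kb windows went together (Spearman's rho 0.75 over 10 windows). The highest peaks of the run had no partner, Chd7 at 976699 to 976811 being 15.6 kb and Sox10 at 108808 to 109975 0.20 kb from the other protein. The next megabase held 27 peaks of each protein.

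The sparsest run, chr2-B (176062002 to 176617051), had 30 Chd7 peaks with a median gap of 10.5 kb, 24 of them within 300 kb. Its 27 Sox10 peaks included 4 with Chd7 (14.8%, against 15.5% in the other bins). Its highest Sox10 peak, at 176482920 to 176484215 (score 1400), lay 28.2 kb from Chd7, and the highest Chd7 peak, at 176229904 to 176232443 (score 349), 7.05 kb from Sox10. In chr2-C (180005787 to 180991423), by contrast, 15 of 36 Chd7 peaks overlapped Sox10, at 41.7% (95% exact interval 25.5% to 59.2%) the highest share of any run. A chain of 20 Chd7 peaks at 180872459 to 180963250 made up 55.6% of the run. The highest Sox10 peak of all runs, 4957 bp wide at 180044259 to 180049215 (score 1593), covered 2 Chd7 peaks. The highest Chd7 peak, at 180286926 to 180287785 (score 554), lay within a Sox10 peak of score 439.

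On chromosome 6, chr6-A (39243834 to 39578204) was the shortest run, with 33 Chd7 peaks in 334 kb. Its strongest sites were broad for both proteins. The highest Chd7 peak, 3932 bp at 39259606 to 39263537 (score 568), had almost the same borders as a Sox10 peak of score 393. Nearby, the highest Sox10 peak (score 690) was 4577 bp wide and matched the widest member described above. In all 9 Chd7 peaks (27.3%, against 44.8% in the other bins) and 6 of 23 Sox10 peaks (26.1%, against 15.5%) overlapped. No Chd7 peak lay in the 387 kb before the run.

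Chromosome 7 had a run at its start and another at 22 Mb. The first, chr7-A (19 to 949340), held 71 Chd7 peaks, and their median score was 71.2. Of these, 16 lay on Sox10 (22.5%, against 44.8% in the other bins). Chd7 was found at 12 of 31 Sox10 peaks (38.7%, against 15.5%). From 0.3 to 0.9 Mb the run had 60 Chd7 and 28 Sox10 peaks. Sox10 peaks were broad here, with a median of 1290 bp, and the highest, 7173 bp at 527768 to 534940 (score 683), spanned 3 Chd7 peaks. High density went on beyond the run, with 24 Chd7 and 29 Sox10 peaks in the next megabase.

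The second, chr7-B (22156284 to 22822150), was dense in both proteins, with 72 Chd7 and 43 Sox10 peaks, while the bin before it had 8 and 2. Between 22.4 and 22.7 Mb each 100 kb held 16 to 18 Chd7 peaks, 51 in all, with 29 Sox10 peaks. Of the Chd7 peaks 23 overlapped Sox10 (31.9%, 21.4% to 44.0%). The strongest sites sat side by side: a Chd7 peak at 22488368 to 22489023 (score 1557) over a Sox10 peak of score 475, and next to it the highest Sox10 peak, at 22490142 to 22494693 (score 599), over 2 Chd7 peaks of scores up to 1102.

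On chromosome 8, chr8-A (126012176 to 126987588) had 32 Chd7 and 31 Sox10 peaks, and 8 of each overlapped. Of the Chd7 peaks 26 lay in the first 300 kb. No Chd7 peak of the run exceeded a score of 274, and that one, at 126143581 to 126144720, missed the nearest Sox10 peak by 0.39 kb. Sox10 was highest at 126987071 to 126987859 (score 645), over a Chd7 peak of score 109.

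Chromosome 9 had 2 runs. In chr9-A (7056396 to 7988361), 98 Chd7 peaks in 1 bin made the densest single-bin run, and 96 of them lay between 7.3 and 8.0 Mb. There the counts of both proteins went together along the run, with a Spearman's rho of 0.96 over 10 windows. Of its 28 Sox10 peaks 17 had Chd7 (60.7%, against 15.5% in the other bins). Of the Chd7 peaks 19 had Sox10 (19.4%, against 44.8%). The highest Chd7 peak, at 7615070 to 7616143 (score 518), met a Sox10 peak of score 60.2, near the floor of the list. The densest windows of 100 kb were tied, 7300001 to 7400000 and 7900001 to 8000000, each with 18 Chd7 and 7 Sox10 peaks.

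In chr9-B (11052504 to 11639229), the median member of 52 was 625.5 bp wide and the median score was 121. The first 500 kb held 48 of them and 20 of the 22 Sox10 peaks. Overlaps numbered 17 for Chd7 (32.7%, against 44.8% in the other bins) and 12 for Sox10 (54.5%, against 15.5%). The highest peaks of each protein did not overlap the other: Chd7 at 11348567 to 11349192 (score 435) was 5.72 kb from Sox10, and Sox10 at 11358733 to 11362538 (score 485) was 4.24 kb from Chd7.

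The run at the start of chromosome 12, chr12-A (61 to 704638), had 49 Chd7 peaks, 46 of them in the first 500 kb with 29 of its 36 Sox10 peaks. Overlaps numbered 11 for Chd7 (22.4%, against 44.8% in the other bins) and 10 for Sox10 (27.8%, against 15.5%). The highest peak of each protein overlapped a peak of the other, but not the highest one. The highest Chd7 peak, at 452940 to 453822 (score 1953), met Sox10 at a score of 54.0, and the highest Sox10 peak, at 633885 to 634950 (score 1303), met Chd7 at 74.2.

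On chromosome 13, chr13-A (38204687 to 38962498) had the highest median Chd7 score of any run, 299, over 70 peaks. Chd7 was found at 19 of its 20 Sox10 peaks (95.0%, 75.1% to 99.9%), the highest share of any run, and Chd7 ranked above Sox10 in all 20 pairs. The median Sox10 score was 82.0. The strongest site was the same for both proteins, a Chd7 peak at 38638377 to 38641444 (score 3100) inside a Sox10 peak at 38637809 to 38641488 (score 1170). The bins on both sides held 4 and 1 Chd7 peaks.

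Chromosome 14 had 2 runs with 10 and 15 Sox10 peaks, near the median of 13 in the other bins. The bins beside the first held 3 and 4 Sox10 peaks, and those beside the second 3 and 1. In chr14-A (48071503 to 48915154), 32 Chd7 peaks had the smallest median width of any run, 239 bp, and fell mainly into 2 windows of 12 and 11 peaks. The highest, at 48195385 to 48196058 (score 2068), overlapped Sox10 at a score of 211, while the highest Sox10 peak, at 48844231 to 48844933 (score 1088), carried Chd7 at a score of 52.0. In chr14-B (94045613 to 94940446), 11 of 15 Sox10 peaks overlapped Chd7 (73.3%, against 15.5% in the other bins). Sox10 was overlapped by 15 of 58 Chd7 peaks (25.9%, against 44.8%). A chain of 26 Chd7 peaks at its start, 94045613 to 94163671, was preceded by 138 kb and followed by 103 kb without Chd7. The highest Chd7 peak, at 94758882 to 94759248 (score 1371), lay outside that chain, over Sox10 at 308. The highest Sox10 peak, at 94342429 to 94350477 (score 331), was 8049 bp wide and covered 2 Chd7 peaks.

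On chromosome 15, chr15-A (9026196 to 9992006) had 3 of 54 Chd7 peaks on Sox10, 5.56% against 44.8% in the other bins. Of its 22 Sox10 peaks 3 had Chd7, 13.6% against 15.5% in the other bins. Its Chd7 peaks were spread over the whole megabase, 1 to 11 per 100 kb, and no score exceeded 214. The highest, at 9463895 to 9465293, was 7.62 kb from Sox10, and the highest Sox10 peak, at 9537706 to 9541296 (score 250), 4.90 kb from Chd7. The bin before held 31 Sox10 and 9 Chd7 peaks, so the more frequent protein differed between the neighbouring bins.

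On chromosome 16, chr16-A (21067733 to 21994299) was made up of nearly a single block. Of its 62 Chd7 peaks 59 lay in the last 400 kb, and the chain they belonged to ran on into the next bin, with 70 peaks from 21635376 to 22075106. Before this chain was a stretch of 44.8 kb, and after it one of 97.2 kb, without Chd7. Peaks of both proteins were broad, with medians of 715.5 bp for Chd7, the largest of any run, and 1382.5 bp for Sox10. Overlaps numbered 19 for Chd7 (30.6%, against 44.8% in the other bins) and 14 of 34 for Sox10 (41.2%, against 15.5%). Its highest Sox10 peak, at 21190926 to 21191738 (score 930), lay outside the block, 123 kb from Chd7, and the highest Chd7 peak, at 21771349 to 21772176 (score 782), was 15.2 kb from Sox10.

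On chromosome 17, chr17-A (59003075 to 59802648) had 53 Chd7 peaks of a median score of 111, 45 of them in the first 400 kb. Its 20 Sox10 peaks had the lowest median score of any run, 62.0. Of these, 10 had Chd7 (50%, against 15.5% in the other bins), and Chd7 ranked higher in 11 of 12 pairs. The highest Chd7 peak, at 59285294 to 59286054 (score 917), overlapped Sox10 at 74.8, and the highest Sox10 peak, at 59821037 to 59821840 (score 346), was 18.4 kb from Chd7. The bin before the run was rich in Sox10, with 37 peaks, and held 6 Chd7 peaks.

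On chromosome 19 the windows with most Chd7 peaks held few or no Sox10 peaks, as did several windows of chr1-B. In chr1-C, 2 windows with 10 or more Chd7 peaks also held no Sox10 peak. In chr19-A (144963 to 892297), none of 36 Chd7 peaks overlapped any of 11 Sox10 peaks. That count of 0 allows a share of up to 8.33% (3 counts of 36), and the 95% exact interval reaches 9.74%. The proteins occupied separate stretches of the bin: 31 Chd7 peaks lay between 0.2 and 0.5 Mb, where no Sox10 peak was called, and the Spearman's rho over 10 windows was -0.72. Its highest Sox10 peak, at 545507 to 546367 (score 611), was 88.3 kb from Chd7, and its highest Chd7 peak, at 891961 to 892297 (score 387), 25.5 kb from Sox10.

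The longest run, chr19-B (37234756 to 40948919), took up 4 bins with 169 Chd7 and 54 Sox10 peaks. Its Chd7 peaks had the lowest median score of any run, 67.2, and a maximum of 226. Only 11 Chd7 peaks (6.51%, 3.29% to 11.3%) overlapped Sox10. Of the Sox10 peaks 8 had Chd7, 14.8% against 15.5% in the other bins. Of its 5 windows with 10 or more Chd7 peaks, 4 held no Sox10 peak, among them the densest, 37400001 to 37500000, with 18 Chd7 peaks. Over its 40 windows the Spearman's rho was -0.07. The highest Sox10 peak, at 37126529 to 37127945 (score 1392), was 107 kb from Chd7, and the highest Chd7 peak, at 37363917 to 37364452 (score 226), 138 kb from Sox10.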

How the data were processed

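For each antibody the authors deposited 1 list of peaks, giving position and caller score. Per the submitters' processing notes, CASAVA, Bowtie2 and MACS were used with build rn5. Tool versions, settings, filters and control libraries are not stated in the sources at hand. The deposited score has no stated scale and only ranks peaks of the same list. Read counts and depth are unknown.

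Bins of 1 Mb were set by the peak start, and peaks counted as overlapping from 1 bp (the counts equal those of bedtools 2.31.1). Shares carry 95% exact (Clopper-Pearson) intervals, which cover counting error only. Chromosome X, where no bin held more than 16 Chd7 peaks, and unplaced scaffolds were left out. No test was made, since each antibody has 1 library and Chd7 density chose the windows. The finding of dense bins and the counting of overlaps were checked on simulated data, and the other calculations were not. The peaks named are the highest of each run for each protein, the 10 highest members, the densest 100 kb of the 5 largest runs and bins near the threshold. The widest peaks were chosen after their values were seen. Members and lists were chosen with earlier results of these data known. Positions are 1-based. Scripts ran on pandas 2.3.3, numpy 2.4.6, scipy 1.17.1 and Python 3.11.15.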

Additional observations from a re-analysis of the deposited data

How the results depend on the processing

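The windows were also drawn with 25 or 40 Chd7 peaks as the minimum, with bin edges shifted by 500 kb, and without chr1-C, the run with most members. Members then numbered 1140 to 1568. The share of members overlapping Sox10 was 19.3% to 20.96% in these 4 settings, 26.4% for members with a score of 100 or more and 10.6% for centres within 200 bp. The other bins were not recomputed under any setting. Values under the score minimum or the centre rule therefore have no like value outside the windows to be set against. The share of Sox10 peaks overlapping Chd7, 38.9% as reported, was 34.4% and 43.1% with minima of 25 and 40, 33.1% with shifted bins, 34.5% without chr1-C, 24.5% when Chd7 peaks needed a score of 100, and 24.5% for centres within 200 bp. The median gap was 7.61 kb between members with a score of 100 or more and 6.43 kb from centre to centre. The median width became 590 bp with that score minimum. The median member score was 94.6 with a minimum of 40, 84.0 without chr1-C and 186 with the score minimum, which sets it by construction. The other 41 of 55 values stayed within the interval or the 1.5-fold range of the reported value. Settings for Sox10 score and width and for runs at chromosome starts were added after seeing the data. Sox10 peaks without Chd7, a median of 11 per dense bin, reached 17.5 with a minimum of 25, so their equality with the median reported for the other bins depends on the threshold. No paired analysis was possible because there was 1 library per antibody, and leaving out a replicate was not possible. Sequence and annotation of the strongest members were not run, because an rn5 genome was not used here. No site with a score under 50 is listed, and depth limits what lies above it.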

Other observations

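Compact chains of Chd7 peaks also occurred outside the dense bins, in bins below the threshold or on chromosome X, which the rule left out. With gaps of up to 20 kb, the whole Chd7 list formed 68 chains of 10 or more peaks, and 23 of them held no member. The one with the most peaks stood on chromosome 7 at 99993658 to 100107183, with 18 Chd7 peaks of which 4 overlapped Sox10, across the border of 2 bins with 25 and 26 peaks. A chain of 17 peaks lay just before it, at 99818402 to 99918733. Another of 17 was on chromosome 20 at 42559656 to 42648317, with a median score of 174 and 3 peaks over Sox10.

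Some of these chains were strong and without Sox10. A chain of 15 peaks on chromosome 1 at 57175335 to 57253378, in the bin after chr1-B, had a median score of 261 and no overlap with Sox10. Chains without Sox10 were also found on chromosome 17 at 91067823 to 91136207 (13 peaks, median score 144), on chromosome 9 at 105501368 to 105570451 (12 peaks, median score 147) and on chromosome X at 36768008 to 36795609 (12 peaks, median score 202). Weaker chains without Sox10 lay on chromosomes 8 (14 peaks, median score 86.1), 20 (12 peaks, 79.7) and 7 (10 peaks, 129). Over all Chd7 peaks of chromosomes 1 to 20, 42.4% overlapped Sox10. The chain with the highest median score, 458, held 13 peaks on chromosome 3 at 140438590 to 140529601, and 5 of them overlapped Sox10. On chromosome 14 at 46791531 to 46863563, 7 of 10 peaks did.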
